A study of Caenorhabditis elegans with 6 samples.

Results

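Transcripts of the synaptonemal complex and the meiotic chromosome axis were compared between genotypes in starved L1 larvae, the first larval stage, of Caenorhabditis elegans. The 10 genes are syp-1, syp-2, syp-3, syp-4, him-3, htp-1, htp-2, htp-3, rec-8 and coh-3. They are named parts of these structures, chosen with earlier results of these data known, and every probe set whose only annotated symbol is one of these names was taken, which gave 11 probe sets of 22548 tested. All 10 genes had a probe set, out of 17118 genes measured, and him-3 alone had more than 1. Each gene is represented by the probe set with the brightest mean over the 6 arrays. The larvae were lin-35(n745) mutants (3 arrays) or wild type (3 arrays). The allele n745 is a nonsense mutation of lin-35, the worm's homologue of the retinoblastoma tumour suppressor. LIN-35 acts with E2F, DP and other proteins of the DREAM complex to repress transcription. Larvae of both genotypes hatched in buffer without food or cholesterol and were collected after 30 h at 20 °C, and RNA was prepared from whole animals. Fed larvae and other lin-35 alleles were not analysed here.

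In meiotic prophase the sister chromatids of each homologue are held in loops along a protein axis. In C. elegans the axis is built from cohesin, whose kleisin subunit is REC-8 or one of the near-identical pair COH-3 and COH-4, and from the HORMA domain proteins HTP-3, HIM-3, HTP-1 and HTP-2. The SYP proteins then assemble between the axes of paired homologues as the central region of the synaptonemal complex, and SYP-1 is one of its transverse filament proteins. A newly hatched larva has a pair of primordial germ cells, which enter meiosis only in later larval stages. An array of whole larvae gives 1 summed level per transcript, so more cells with a transcript and more RNA per cell cannot be told apart.

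Expression is given as RMA values (robust multi-array averaging) on the log2 scale, and differences are lin-35(n745) minus wild type in log2 units, so that 1 is a doubling. A gene is called, and said to have risen or fallen, when its adjusted p is below 0.05 in a limma fit over all 22548 probe sets. Array medians lay between 5.91 and 6.11. For lin-35 itself no difference was detectable, at 0.06 by the brighter probe set (95% interval −0.38 to 0.50, limma adjusted p = 0.894). A nonsense allele can leave the probed sequence in place, so neither lin-35 probe set tests the labels. The larval tissue genes unc-54, a muscle myosin, and ges-1, an intestinal esterase, read 11.8 to 12.4 and 9.29 to 9.43 on mutant arrays, against 9.21 to 12.6 and 8.83 to 9.08 on wild-type arrays. The 9.21 was wild-type replicate 2, below the other wild-type arrays. Neither gene was called, but elt-2, a GATA factor gene of the intestine, was higher in the mutant on both its probe sets, by 0.98 on the brighter (7.71 to 8.13 on mutant arrays against 6.69 to 7.18 on wild-type arrays, limma adjusted p = 0.0215) and by 1.11 on the dimmer (limma adjusted p = 0.0493). The brighter probe set lost its call without mutant replicate 2 (0.0550), mutant replicate 3 (0.0688), wild-type replicate 1 (0.0733) or wild-type replicate 3 (0.0600), and the dimmer without mutant replicate 2 (0.0754) or any 1 wild-type array (0.108 to 0.136). The part of the intestine in the differences below was not tested. As a measure of RNA quality, the actin control's 3' probe set exceeded its 5' probe set by 2.31, 0.41 and 1.23 log2 units on mutant replicates 1 to 3, against 0.53, 0.70 and 0.78 on wild-type replicates 1 to 3.

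Of the 10 genes, syp-1, him-3 and coh-3 rose in the mutant and none fell. By the same rule 5.71% of all genes were higher and 6.12% lower. The 3 genes stand for 3 different layers of the structure: the central region, the HORMA domain axis and the axis cohesin. In each layer other members were not called. The median difference over the 10 genes was 0.09, beside −0.04 over all genes. At an unadjusted p below 0.05 in the same limma fit, 4 genes were higher and 1 lower, the additional genes being syp-3 and syp-2, and over all genes 11.8% were higher and 15.5% lower at that threshold. On 4 of the 10 genes all mutant arrays lay above all wild-type arrays, and on 1, syp-2, they lay below. Over all genes these shares were 13.1% and 18.2%, and 31.3% either way.

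**Figure D1:**
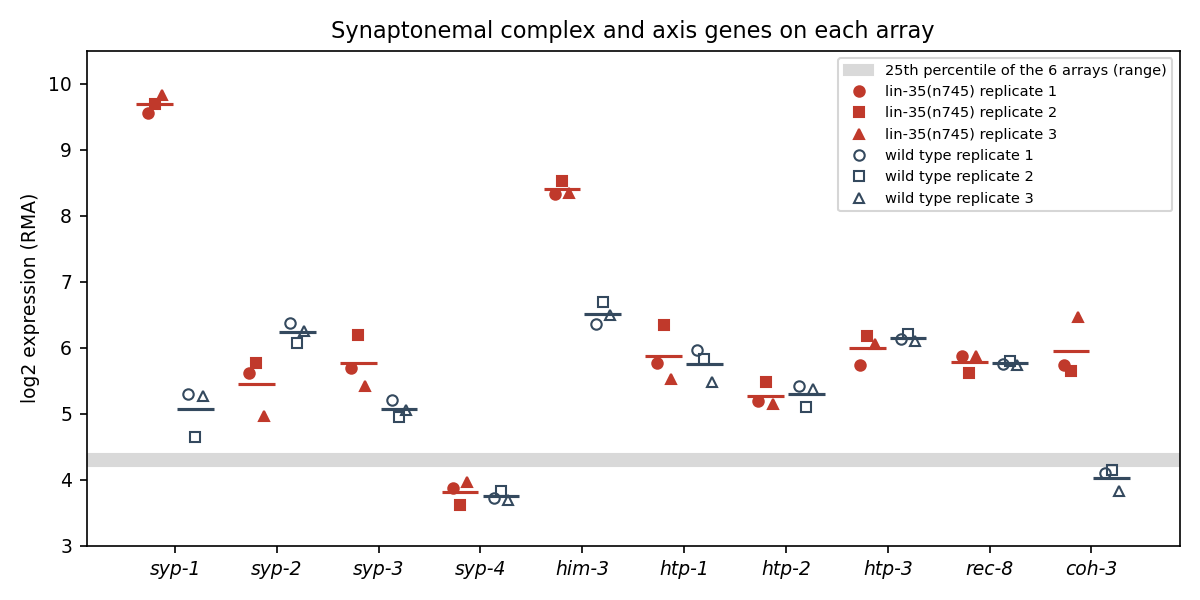
Log2 expression (RMA) of the 10 genes on each array, with lin-35(n745) as filled red symbols on the left and wild type as open dark symbols on the right of each gene, replicates told apart by symbol shape and lines at the group means. The grey band is the range of the 25th percentile over the 6 arrays, 4.20 to 4.38. The 3 genes syp-1, him-3 and coh-3 separate by more than 1 log2 unit, and syp-4 lies under the band on all 6 arrays.

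The central region gene syp-1 had by far the largest difference of the 10 genes. It read 9.55, 9.69 and 9.84 on mutant replicates 1 to 3, against 5.30, 4.65 and 5.26 on wild-type replicates 1 to 3. The groups lay over 4 log2 units apart at their nearest arrays, and the mutant arrays spanned under 0.3 units. The means were 9.69 ± 0.14 in the mutant and 5.07 ± 0.37 in the wild type (SD, n = 3 each), a log2 difference of 4.62 (SE 0.21, 95% interval 4.12 to 5.12, limma adjusted p = 0.000128). That is a 24.6-fold higher level, and it was number 12 among the 22548 probe sets ordered from the highest difference. The wild-type readings lay above the 25th percentile of their arrays but below the array medians.

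The other 3 SYP genes, whose proteins assemble with SYP-1 and depend on one another for loading between homologues, were not called. For syp-2 the mutant arrays read 5.62, 5.77 and 4.97, against 6.38, 6.07 and 6.26 on the wild-type arrays. All mutant readings were thus below all wild-type readings, but the difference of −0.78 (SE 0.23, 95% interval −1.33 to −0.23) missed the threshold (limma adjusted p = 0.0758). Centring each array on its median gave −0.87 with an adjusted p of 0.0301, and array weights gave −0.78 with 0.0369, so the call of syp-2 depends on the scaling and weighting. For syp-3 the order was the opposite, with 5.69, 6.19 and 5.42 on mutant arrays against 5.22, 4.94 and 5.06 on wild-type arrays. All mutant readings were above all wild-type readings, by 0.69 on average (SE 0.22, 95% interval 0.17 to 1.21, limma adjusted p = 0.0907). No alternative called it, and its lowest adjusted p among them was 0.0521. For syp-4 the mutant arrays read 3.88, 3.62 and 3.96, against 3.73, 3.83 and 3.69 on the wild-type arrays, which overlap. The difference was 0.07 (SE 0.15, 95% interval −0.29 to 0.43, limma adjusted p = 0.855), and its sign turned under median centring and some other alternatives. All 6 readings of syp-4 were below the 25th percentile of their arrays, where a value can be background, so a change of a low syp-4 transcript may not be detectable on this array.

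Among the HORMA domain genes, him-3 alone was called. Its brighter probe set read 8.34, 8.52 and 8.35 on mutant replicates 1 to 3, against 6.36, 6.69 and 6.50 on wild-type replicates 1 to 3. The groups did not overlap, and the spread within each was under 0.4 units. The means were 8.40 ± 0.10 in the mutant and 6.51 ± 0.17 in the wild type (SD, n = 3 each), a log2 difference of 1.89 (SE 0.15, 95% interval 1.53 to 2.25, limma adjusted p = 0.000837), or 3.70-fold. The brighter probe set carries an identifier of the kind that can match several transcripts. Among the other genes, syp-2, syp-3 and rec-8 are each read by such a probe set alone. Whether these match other transcripts was not tested. The dimmer him-3 probe set, without such a mark, read 8.01, 6.82 and 6.76 on mutant arrays against 6.03, 5.26 and 5.59 on wild-type arrays. It differed by 1.57 in the same direction with a wider error (SE 0.37, 95% interval 0.70 to 2.43, limma adjusted p = 0.0373). It was no longer called when any 1 wild-type array was left out (adjusted p 0.0686, 0.115 and 0.0832 without replicates 1 to 3), nor without mutant replicate 3 (0.0666), with the actin 3' to 5' difference as a covariate (1.18, adjusted p = 0.0852) or when mutant replicate 2 was the sole mutant array (1.19, adjusted p = 0.158), while the brighter probe set kept its call whichever single array was left out.

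The HORMA paralogues of him-3 were not called, and on each of them the genotypes overlapped. For htp-1, needed for homologue pairing and for regulated cohesion, mutant arrays read 5.76, 6.34 and 5.53, against 5.96, 5.83 and 5.48 on wild-type arrays. The difference was 0.12 (SE 0.25, 95% interval −0.46 to 0.69, limma adjusted p = 0.842). For htp-2, a close copy of htp-1, mutant arrays read 5.20, 5.48 and 5.14, against 5.42, 5.10 and 5.37 on wild-type arrays, a difference of −0.02 (SE 0.17, 95% interval −0.42 to 0.37, limma adjusted p = 0.956). The signs of both turned when single arrays were left out. The probe sequences were not used here, so whether the htp-1 and htp-2 probe sets each detect their own transcript alone was not tested. For htp-3, whose protein recruits the other HORMA proteins to the axis, mutant arrays read 5.74, 6.18 and 6.06, against 6.14, 6.21 and 6.11 on wild-type arrays. The difference was −0.16 (SE 0.16, 95% interval −0.54 to 0.23, limma adjusted p = 0.635). The intervals of htp-2 and htp-3 leave out differences as large as that of him-3 in either direction, as does that of htp-1.

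The kleisin genes, which encode the ring-closing subunit of cohesin, divided in the same way. For coh-3 mutant arrays read 5.74, 5.64 and 6.46, against 4.10, 4.15 and 3.83 on wild-type arrays. The groups did not overlap, with mutant replicate 3 the highest. The means were 5.95 ± 0.45 in the mutant and 4.02 ± 0.17 in the wild type (SD, n = 3 each), a log2 difference of 1.92 (SE 0.24, 95% interval 1.35 to 2.50, limma adjusted p = 0.00434), or 3.79-fold. All 3 wild-type readings of coh-3 were below the 25th percentile of their arrays and can be background, in which case the log2 difference understates the change. The closely similar coh-4 had no single-symbol probe set and was not analysed here, and coh-4 transcripts that bind the coh-3 probes cannot be told apart from those of coh-3. For rec-8 mutant arrays read 5.87, 5.61 and 5.87, against 5.76, 5.79 and 5.74 on wild-type arrays. The difference was 0.02 (SE 0.14, 95% interval −0.32 to 0.36, limma adjusted p = 0.960), and its sign turned under several alternatives.

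**Figure D2:**
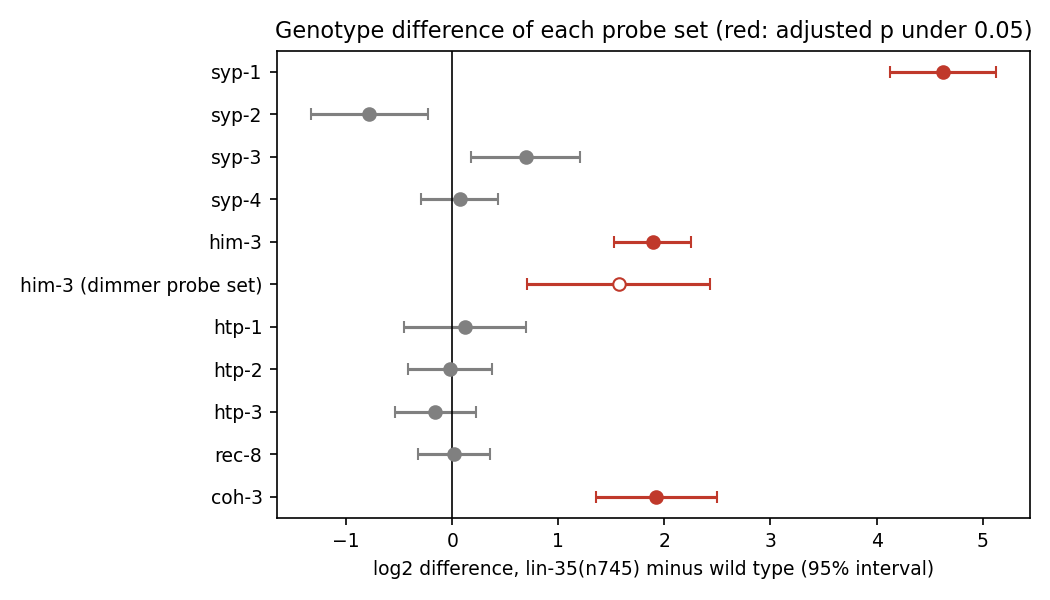
Log2 difference, lin-35(n745) minus wild type, of each of the 11 probe sets with its 95% interval from the limma fit, red where the adjusted p is below 0.05. The open point is the dimmer him-3 probe set. The 3 called genes lie at 1.89 or above, and the other 7 between −0.78 and 0.69.

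The calls of syp-1, him-3 and coh-3 held in each alternative in which they were measured, 19, 19 and 18 of them. For syp-1 the difference ranged from 4.41 to 4.74 and the adjusted p reached 0.0188 at most. For him-3 the difference ranged from 1.57 to 2.01, with an adjusted p of up to 0.0380, the low end coming from its dimmer probe set. For coh-3 the difference ranged from 1.62 to 2.08, with an adjusted p of up to 0.0412. With mutant replicate 2, the mutant array of lowest actin 3' to 5' difference, as the only mutant array, syp-1 stood at 4.62, him-3 at 2.01 and coh-3 at 1.62. Those 3 were still the called genes among the 10 (limma adjusted p 0.0188, 0.0298 and 0.0412), in a fit that assumes the lone mutant array varies like the wild-type arrays. With the actin 3' to 5' difference as a covariate they stood at 4.68, 1.94 and 1.92 and remained called. For him-3 both of these fits use the brighter probe set, and the dimmer was called in neither.

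**Figure D3:**
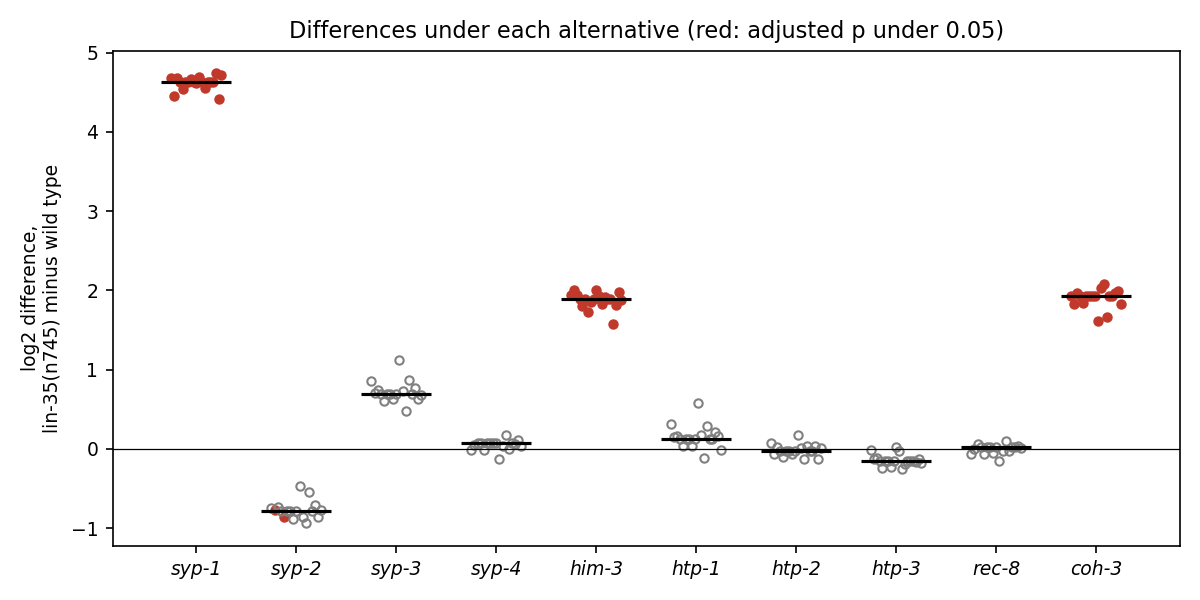
Log2 difference, lin-35(n745) minus wild type, of each gene under each alternative processing in which it was measured (points, red where the adjusted p is below 0.05) and in the reported fit (black line). The points of syp-1 lie between 4.41 and 4.74, those of him-3 between 1.57 and 2.01 and those of coh-3 between 1.62 and 2.08. Of the other genes only syp-2 has red points, 2 of its 17.

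Whether genes of the same layer differed from one another in their response was examined with the log2 ratio of both probe sets on each array. The level of such a ratio has no meaning between different probes, but a fixed brightness of each probe cancels in its difference between genotypes. In the dim range, where a value can be background, this does not hold. Other dependence on the probe, such as matches of the syp-2, syp-3, rec-8 or brighter him-3 probe sets to several transcripts, was not tested. The ratio of syp-1 to syp-2 averaged 4.24 ± 0.54 on mutant arrays and −1.17 ± 0.23 on wild-type arrays (SD, n = 3 each), a difference of 5.40. The ratio of syp-1 to syp-3 differed by 3.93 and that of syp-1 to syp-4 by 4.55. The ratio of him-3 differed by 1.77 against htp-1, by 1.91 against htp-2 and by 2.05 against htp-3. The ratio of coh-3 to rec-8 averaged 0.17 ± 0.38 on mutant arrays and −1.74 ± 0.15 on wild-type arrays (SD, n = 3 each), a difference of 1.90. Readings of syp-4 on all arrays, and of coh-3 on the wild-type arrays, were in the dim range, so their ratio differences are not exact and compare with values that can be background. In all 7 pairs, these 2 included, the mutant arrays lay above the wild-type arrays without overlap. The two-sided exact permutation p was 0.1 for each, and 0.1 after Benjamini-Hochberg adjustment over the 7 pairs. That is the smallest p this test can give with 3 arrays against 3, so it cannot place these differences below 0.05. The leading gene of each pair was picked with its difference known, so the separation of the ratios follows largely from that choice. Both syp-1 and him-3 enter several pairs, so the 7 pairs are not separate results. These values are a description.

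**Figure D4:**
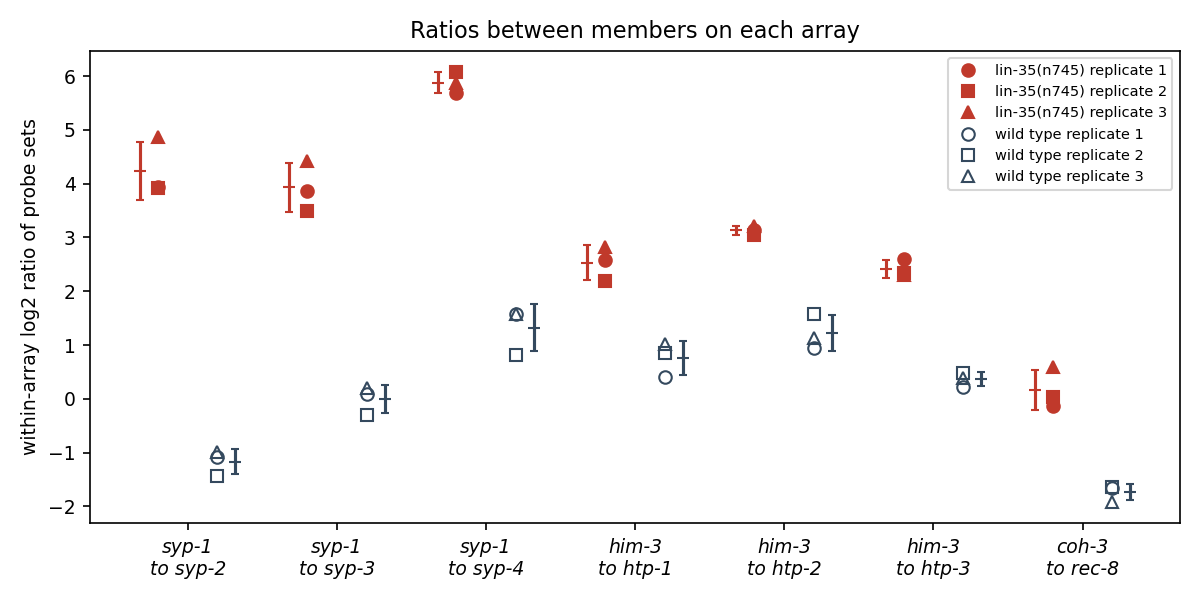
Within-array log2 ratio between probe sets of 7 gene pairs, with lin-35(n745) arrays as filled red symbols on the left and wild-type arrays as open dark symbols on the right of each pair, and the mean with its SD beside each group. In each pair the 3 mutant arrays lie above the 3 wild-type arrays, by 5.40 on average for syp-1 to syp-2 and by 1.77 for him-3 to htp-1.

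The 3 genes that rose are not neighbours in the genome. In the RefSeq gene table syp-1 and coh-3 lie on the same chromosome with 579 protein-coding genes between them, and him-3 lies on another. The gene him-3 shares its chromosome with htp-1, htp-2 and rec-8, none of which was called, and 101 protein-coding genes lie between him-3 and htp-2.

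Genes whose profiles over the 6 arrays came closest to each of the 3 were found by the root mean square distance between profiles centred on their own means. For syp-1 these were Y58A7A.3 (distance 0.19 log2 units), Y58A7A.5 (0.24), hpo-32 (0.26), C49G7.12 (0.27) and C29A12.1 (0.27), with differences between genotypes of 4.33 to 4.87. For him-3 they were chk-1 (0.11), the DNA damage checkpoint kinase, T16A9.3 (0.14), nonu-1 (0.14), H20J04.6 (0.15) and hat-1 (0.15), a histone acetyltransferase, with differences of 1.72 to 1.99. For coh-3 they were W08E12.2 (0.08), the DREAM subunit gene lin-9 (0.19), cpb-1 (0.20), an RNA-binding protein of the germline, cox-10 (0.20) and pde-12 (0.20), with differences of 1.73 to 2.07. None of the 15 is another of the 10 meiotic genes, and with 6 arrays in 2 groups the distance reflects mainly the size of the genotype difference.

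Other genes of the synaptonemal complex and axis were mostly not called. Of 11 such genes 10 had a probe set, of which 1 rose and 0 fell, at a median difference of 0.11. Over all genes 5.71% were called higher and 6.12% lower, so a count of 1 is near that share. The gene that rose was pch-2, an AAA+ ATPase that remodels HORMA domain proteins. It averaged 7.51 ± 0.41 in the mutant and 5.53 ± 0.57 in the wild type (SD, n = 3 each), a difference of 1.98 (SE 0.33, limma adjusted p = 0.0112), and its call was lost when mutant replicate 2 was the sole mutant array (0.129). The central region genes syp-5 and syp-6 differed by 0.21 and 0.08 (limma adjusted p 0.573 and 0.855). Readings of syp-5 were below the 25th percentile on 1 mutant and 3 wild-type arrays, where a value can be background. The SCF subunit genes skr-1 and skr-2, whose proteins also take part in the complex, differed in opposite directions, by −0.73 and 1.06, and were not called (limma adjusted p 0.0827 and 0.0708).

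Of 9 other cohesin subunit and regulator genes, some shared by mitosis and meiosis and some mitotic or somatic, 3 rose while 0 fell, at a median difference of 0.52. Over all genes 5.71% were called higher and 6.12% lower. The mitotic kleisin scc-1 rose by 1.56 (SE 0.15, limma adjusted p = 0.00166). The SMC subunit gene smc-3 (1.66, adjusted p = 0.0242) and the cohesin release factor gene wapl-1 (0.98, adjusted p = 0.0299) also rose, but scc-1 alone was called without mutant replicate 1, without mutant replicate 3 or without wild-type replicate 1. Without mutant replicate 2 smc-3 was not called either (0.0508), and without wild-type replicate 3 wapl-1 was not (0.0767). With the actin covariate, or when mutant replicate 2 was the sole mutant array, the count was 1. Of 7 measured genes of homologue pairing, among them chk-2, plk-2, him-8 and sun-1, limma called 0 in either direction, and 0 passed at an unadjusted p below 0.05, with a median of −0.08. None of the alternatives called a higher one. At that unadjusted threshold 11.8% of all genes were higher and 15.5% lower. The pairing genes zim-1 and zim-3 were below the 25th percentile on all arrays, and zim-2 on 2 mutant and 3 wild-type arrays. Such values can be background, so changes of these genes may not be detectable.

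Beside 5.71% of all genes higher and 6.12% lower, 7 of 28 measured genes of meiotic breaks and crossovers rose and 0 fell, at a median difference of 0.21. They were brc-1 (2.09, adjusted p = 0.000470), mre-11 (2.80, adjusted p = 0.000593), brd-1 (2.37, adjusted p = 0.00114), zhp-2 (2.18, adjusted p = 0.00132), rad-50 (2.77), rad-51 (1.70) and dsb-2 (1.28). Most of these 7 act in DNA repair outside meiosis too: mre-11 and rad-50 process broken ends, rad-51 exchanges strands, and brc-1 and brd-1 form the BRCA1 and BARD1 ubiquitin ligase. The others, zhp-2 and dsb-2, act in meiotic crossover and break formation. The call of dsb-2 (adjusted p = 0.0338) was lost when mutant replicate 1 (0.0696), mutant replicate 3 (0.0882), wild-type replicate 2 (0.0876) or wild-type replicate 3 (0.0749) was left out, and that of rad-50 when mutant replicate 2 was the sole mutant array (0.0803). Leaving out the probe sets marked as matching more than 1 transcript brought the count to 1. That setting removed the probe sets that represent brc-1, brd-1, zhp-2, rad-50, rad-51 and dsb-2. The lower count therefore does not show that their calls failed. In this list him-14 and rmh-1 were below the 25th percentile on all arrays, where a value can be background.

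**Figure D5:**
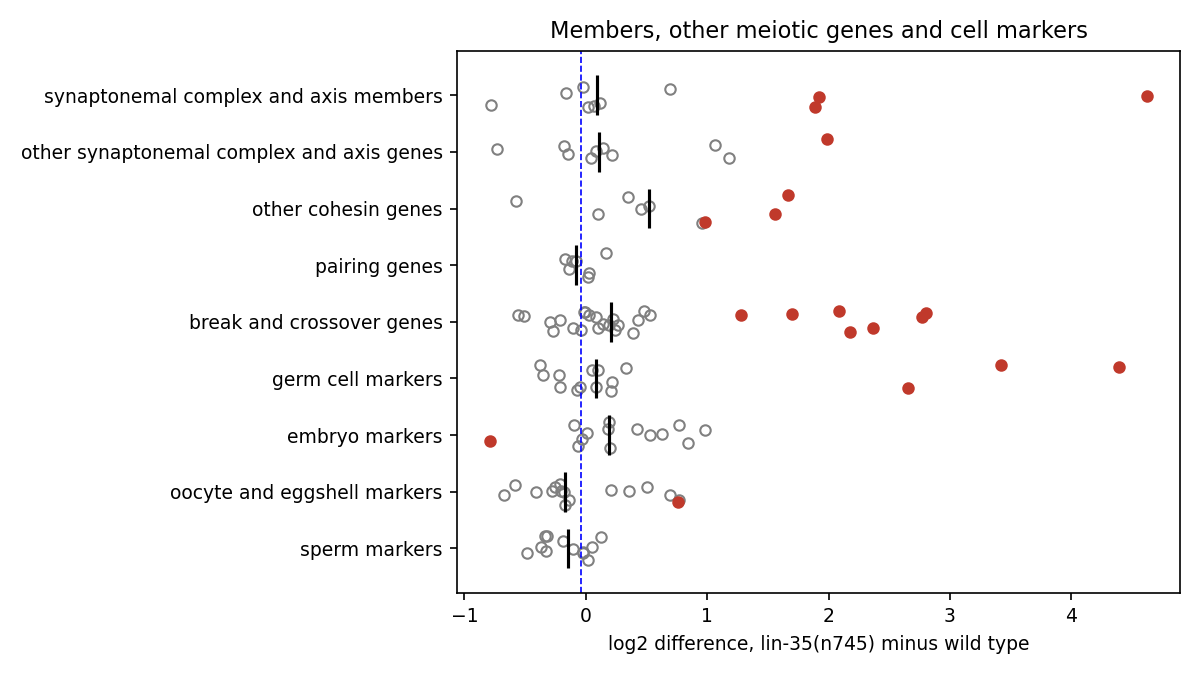
Log2 difference, lin-35(n745) minus wild type, of each measured gene of the 10 synaptonemal complex and axis genes, of 4 lists of other meiotic and cohesin genes and of 4 lists of cell markers. Filled red points passed the adjusted p of 0.05, black bars are list medians, the dashed line is the median of all genes at −0.04, and vertical scatter within a row only separates points. The gene syp-1 at 4.62 is the rightmost point.

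Genes listed as markers of germ cells, unhatched embryos, oocytes and sperm were set beside the meiotic genes. Whether other larval cells also express them was not tested. Beside 5.71% of all genes higher and 6.12% lower, 3 of 15 germ cell markers rose and 0 fell, at a median difference of 0.08. They were the P granule genes pgl-3 (3.42, limma adjusted p = 0.000161), glh-1 (4.40, adjusted p = 0.000733) and pgl-1 (2.66, adjusted p = 0.000837), and they too were called in each alternative in which they were measured. The list's summed linear level, 2 to the power of the log2 values, was 2492 to 2964 on mutant arrays and 645 to 834 on wild-type arrays. On mutant arrays the called genes were the brightest of the list, glh-1 averaging 10.3, pgl-1 8.86 and pgl-3 8.51. The difference in the sum therefore reflects mainly these 3 genes and does not describe the list as a whole. The marker fbf-1 was below the 25th percentile on all 6 arrays. The other 12 germ cell markers, among them nos-1, nos-2, gld-1 and xnd-1, were not called. They include further genes of P granule proteins, glh-2, glh-4, deps-1, prg-1 and meg-1, with differences of −0.22 to 0.34 (limma adjusted p 0.290 or more). The listed P granule genes thus did not rise as a group.

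Of 14 measured embryo markers limma called 0 higher and 1 lower, med-1, and 3 were higher and 1 lower at an unadjusted p below 0.05. Over all genes 5.71% were called higher and 6.12% lower, and 11.8% and 15.5% passed at the unadjusted threshold. The call of med-1, at −0.79 (limma adjusted p = 0.0228), was lost when mutant replicate 2 or 3 or wild-type replicate 1 or 3 was left out, with an adjusted p of up to 0.0733 in those fits. The embryo markers' summed linear level was 4131 to 5926 on mutant arrays and 2203 to 3836 on wild-type arrays, and tbx-37 was below the 25th percentile on all arrays. The brightest embryo marker was skn-1, averaging 10.9 in the mutant and 10.1 in the wild type. Of 16 oocyte and eggshell markers 1, egg-2, rose by 0.76 (limma adjusted p = 0.0385), and no marker fell. That count is near the share of all genes called higher, 5.71%. The egg-2 call was lost in 11 of 19 alternatives, among them the removal of any single array other than mutant replicate 2, with an adjusted p of up to 0.147 among those. The summed linear level of the oocyte and eggshell markers was 1275 to 1592 on mutant arrays and 1060 to 1330 on wild-type arrays. The brightest of them was lin-41, averaging 8.95 in the mutant and 8.25 in the wild type. Since other larval cells may express such genes, neither sum measures embryos or oocytes. Of 12 sperm markers limma called 0 in either direction, with 0 at an unadjusted p below 0.05 and a summed linear level of 216 to 283 on mutant arrays and 258 to 328 on wild-type arrays. The sperm markers spe-6, spe-11, spe-12, spe-38 and spe-44 were below the 25th percentile on all arrays. The part of any of these cells in the differences of syp-1, him-3 and coh-3 was not tested.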

How the data were processed

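RNA of starved L1 larvae (6 µg of total RNA per array, per the labels' protocols) was hybridised to one-colour Affymetrix arrays, 3 per genotype. The labels call these biological replicates. The authors deposited log2 values made with RMA, per the submitters' processing notes, with version and filters not given in the sources used here. RMA makes array distributions alike and lifts dim values to a floor, which understates their differences.

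The table held 22625 probe sets, and 77 controls were left out. Names came from the platform annotation: 20766 probe sets had 1 symbol, 887 several and 895 none. Genotypes were compared with limma 3.58.1 in R 4.3.3 (lmFit, eBayes, two-sided, Benjamini-Hochberg over 22548 probe sets), with 4 residual and 3.24 prior degrees of freedom. The fit was tested on simulated data with independent noise and no array or RNA quality effects, so that test does not cover such effects. Exact permutation tests used scipy 1.17.1. The members and lists were chosen with earlier results of these data known. Named genes are the members, called genes of the other lists (up to 4 per list by smallest p), lin-35 and the 5 nearest profiles of syp-1, him-3 and coh-3. Others, such as rad-50, rad-51, dsb-2, skr-1, unc-54, ges-1 and elt-2 or uncalled list members, were named after their values were seen. Deviations of same-numbered arrays correlated at 0.05, 0.08 and 0.07, and the reported fit does not pair arrays by number. Differently numbered arrays were not compared in this way, so these values cannot exclude that same-numbered arrays share a batch. Alternatives changed normalization, dim-value filter, probe sets, variance model, replicate block, floor, RNA quality covariate or arrays.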

Additional observations from a re-analysis of the deposited data

How the results depend on the processing

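Of the 10 genes, the same 3 (syp-1, him-3 and coh-3) were called higher in each alternative run except the filter at the 50th percentile, which left 3 of the 10 measured, without coh-3, and called 2. None was lower except under median centring and array weights, which called 1 lower, syp-2. Of 179 values of single genes under alternatives, 156 kept direction and side of the threshold, 2 (syp-2) passed it and 21 turned sign, all of genes not called. Signs turned as follows. For htp-2 the value was 0.067 with the actin covariate, 0.020 with cyclic loess, 0.18 with mutant replicate 2 as sole mutant array, and −0.13 to 0.041 when single arrays were left out. For rec-8 it was −0.061 with the covariate, −0.0054 with array weights, −0.066 with median centring, −0.049 with repeated quantile normalization, −0.15 with the sole mutant array and −0.023 to 0.10 when single arrays were left out. For syp-4 it was −0.012 with the covariate, −0.017 with median centring, −0.13 with the sole mutant array and −0.0034 to 0.17 when single arrays were left out. For htp-1 it was −0.11 to 0.29 when single arrays were left out, and for htp-3 it was 0.026 with the sole mutant array. The cause was not tested.

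Over all probe sets, 1282 were higher and 1260 lower. Median centring gave 2117 lower and 1277 higher, the sole mutant array 583 and 185 higher and lower, and leaving out multiple-match probe sets 753 higher and 890 lower, with fewer probe sets tested. Leaving out 1 array gave 649 to 1173 higher and 353 to 1235 lower. Among other synaptonemal complex and axis genes 2 were higher under cyclic loess, median centring, the replicate block and the filter at the 50th percentile, and 0 with the sole mutant array. Other cohesin genes counted 1 with the covariate and 1 with the sole mutant array, and 1 to 3 without 1 array. Break and crossover genes counted 1 without multiple-match probe sets, a setting that removed the probe sets representing most of the called genes. Embryo markers counted 2 with all probe sets of a gene averaged and 1 with the replicate block. Oocyte and eggshell markers counted 0 with the covariate, trend and robust settings, median centring, repeated quantile normalization, the replicate block and the sole mutant array, 2 with cyclic loess, and 0 to 1 without 1 array. With the replicate block, where same-numbered arrays are treated as a batch, 1514 probe sets were higher and 1549 lower, and the members' counts were 3 and 0. Dim readings (syp-4, and coh-3 in the wild type) limit what can be seen.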
